A study of Mus musculus with 72 samples.

Results

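The 7 genes described here belong to the renin-angiotensin system: Agt, Ace, Mme, Lnpep, Agtr1a, Agtr2 and Atp6ap2. They were chosen by name and not by a threshold on their values, but with earlier results of these data known. All were found among the 53715 gene identifiers counted in each library. RNA was sequenced from whole tissues of 18-week-old male mice on a C57BL/6J background: 6 Gnb5-/- mice, in which exon 3 of Gnb5 was deleted through the germline and therefore in every tissue, 6 Gnb5+/- mice carrying 1 deleted copy, and 6 Gnb5+/+ mice. The line had been re-established from frozen sperm. Gnb5 encodes a G-protein beta subunit that works with regulators of G-protein signalling. Atria and ventricles, each with left and right sides pooled per mouse, were taken from all 3 genotypes, whereas cerebellum, hippocampi of both hemispheres and cerebral cortex came from Gnb5-/- and Gnb5+/+ mice, for 72 libraries in 12 groups of 6.

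In the circulating system, renin cuts angiotensinogen (Agt) into angiotensin I, and angiotensin-converting enzyme (Ace) turns this into angiotensin II. Angiotensin II acts mainly through the type 1 receptor (Agtr1a in the rodent heart and vessels), which raises vascular tone and aldosterone release, while the type 2 receptor (Agtr2) is best known from fetal tissue and restricted brain nuclei. Neprilysin (Mme) cuts angiotensin I and natriuretic peptides, the aminopeptidase Lnpep binds angiotensin IV, and Atp6ap2, named the (pro)renin receptor, is also an accessory subunit of the vacuolar proton pump. In the brain, angiotensinogen is known mostly as a product of astrocytes.

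In GRCm38, Agt (ENSMUSG00000031980) lay on the minus strand of chr8:124556534-124569706, Ace (ENSMUSG00000020681) on the plus strand of chr11:105967945-105989964, Mme (ENSMUSG00000027820) on the plus strand of chr3:63241537-63386030 and Lnpep (ENSMUSG00000023845) on the minus strand of chr17:17521410-17625050. Agtr1a (ENSMUSG00000049115) lay on the plus strand of chr13:30336441-30382867, and Agtr2 (ENSMUSG00000068122, chrX:21484544-21489164) and Atp6ap2 (ENSMUSG00000031007, chrX:12587801-12617049) both lay on the plus strand of the X chromosome. All 7 were annotated as protein coding. Their exons, merged over all transcripts, spanned 1891 bases in Agt, 2618 in Atp6ap2, 2786 in Agtr1a, 3326 in Agtr2, 5287 in Ace, 11542 in Mme and 14144 in Lnpep. No exon of a member overlapped another gene on its own strand. An antisense gene, Gm11651, overlapped an exon of Ace, but it collected 10 counts over the 72 libraries, beside 157034 counts of Ace.

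The promoters of 4 members are shown because these genes stood at opposite ends of the tissue order given further on: Ace was highest in the heart, Agt was highest in the cerebellum, Agtr2 was at or close to 0 in the heart, and Atp6ap2 was highest in the hippocampus and cortex. Each stretch runs from 250 bases before the RefSeq start to 50 bases after it, on the strand of the gene, in GRCm38.p6. Capitals mark the letters TATAA.
Agt (chr8:124569657-124569956, strand minus): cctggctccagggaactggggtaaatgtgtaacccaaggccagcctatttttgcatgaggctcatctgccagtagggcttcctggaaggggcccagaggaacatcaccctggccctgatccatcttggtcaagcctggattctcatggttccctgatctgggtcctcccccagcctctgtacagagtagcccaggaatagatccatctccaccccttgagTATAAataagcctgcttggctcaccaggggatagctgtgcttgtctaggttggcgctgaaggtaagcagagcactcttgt
Ace (chr11:105967698-105967997, strand plus): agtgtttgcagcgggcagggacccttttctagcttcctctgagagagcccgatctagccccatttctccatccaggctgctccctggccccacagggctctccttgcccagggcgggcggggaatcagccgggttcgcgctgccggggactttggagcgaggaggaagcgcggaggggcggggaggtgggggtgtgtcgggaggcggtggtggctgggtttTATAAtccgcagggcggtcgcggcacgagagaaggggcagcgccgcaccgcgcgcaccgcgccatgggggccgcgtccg
Agtr2 (chrX:21484374-21484673, strand plus): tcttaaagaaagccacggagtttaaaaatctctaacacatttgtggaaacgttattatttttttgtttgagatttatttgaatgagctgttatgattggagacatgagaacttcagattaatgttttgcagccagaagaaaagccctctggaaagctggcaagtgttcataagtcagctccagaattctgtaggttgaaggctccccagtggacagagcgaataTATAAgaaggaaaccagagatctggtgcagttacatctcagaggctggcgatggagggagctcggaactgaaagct
Atp6ap2 (chrX:12587509-12587808, strand plus): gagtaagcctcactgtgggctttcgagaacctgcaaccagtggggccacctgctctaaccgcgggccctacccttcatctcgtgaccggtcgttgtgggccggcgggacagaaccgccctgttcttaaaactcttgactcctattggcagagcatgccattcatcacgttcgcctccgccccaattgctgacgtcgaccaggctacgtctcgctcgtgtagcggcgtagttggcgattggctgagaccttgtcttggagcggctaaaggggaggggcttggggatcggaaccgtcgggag
TATAA began 30 bases before the start of Agt, 29 bases before that of Ace and 26 bases before that of Agtr2, and it was not among the letters of the Atp6ap2 window. In the Ace window the same letters also occurred once on the opposite strand, over the same stretch. Of 32544 promoters of this length, 17.5% held TATAA on the strand of the gene, 24.8% held it on either strand, and in 3.5% it began 21 to 40 bases before the start. The 9 RefSeq promoters that matched 6 members differed in CG pairs, with 1 in Agt, 5 in Agtr2, 24 in Atp6ap2 and 29 in the Ace promoter shown, against a median of 7.0 over all promoters. The remaining promoters were not printed and held no TATAA on either strand: a second one of Ace (2 CG pairs), that of Lnpep (30) and 3 of Mme (4, 32 and 29). No promoter of Agtr1a was in the table.

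Each library held between 29204390 and 48807435 reads assigned to genes (median 38864900). Gnb5 itself was checked first. Its normalised count in Gnb5-/- libraries lay below every Gnb5+/+ library in each of the 5 tissues (log2 fold changes between -4.26 and -2.84), and the means of Gnb5+/- hearts lay between them (log2 fold change -0.93 in atria and -0.95 in ventricles; p = 0.00216 in each case by a two-sided exact permutation test, which can give no smaller value over 924 divisions of 12 mice). The labelled tissues carried their defining markers. The summed level of 4 atrial muscle genes was 26274 TMM-normalised CPM, which are counts scaled to a common library size, in Gnb5+/+ atria and 247 in ventricles, and that of 3 ventricular muscle genes was 14117 in ventricles and 537 in atria. Of the brain lists, 4 cerebellar genes summed to 2058 CPM in Gnb5+/+ cerebellum and 114 and 119 in hippocampus and cortex, 4 hippocampal genes to 313 in hippocampus and 104 and 169 in the other 2 regions (but to 1357 in atria and 2768 in ventricles, so that they separate only the brain regions), and 4 cortical genes to 173 in cortex and 8.11 and 94.4 elsewhere in the brain. A set of 4 libraries stood apart from the other 68. In the Gnb5-/- cerebellum of mouse 12, the Gnb5-/- cortices of mice 14 and 3, and the Gnb5+/- ventricles of mouse 4, genes with over 10000 exon bases were low relative to genes under 1500 bases, by a median log2 difference of -2.33, -2.41, -1.11 and -1.39, against -0.24 to 0.23 in the other libraries. Fold changes that moved when these 4 were left out are given both ways.

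Levels are TMM CPM over all 72 libraries, and levels of different genes are compared only after division by exon length (CPM per kb). In Gnb5+/+ hearts, Ace had the highest level per kb of the 7 genes (22.9 CPM per kb, mean of 12 libraries), followed by Agtr1a (11.5), Atp6ap2 (9.95), Lnpep (8.65), Agt (5.73) and Mme (1.59), with Agtr2 at 0. In Gnb5+/+ brain the order was led by Atp6ap2 (59.4 CPM per kb, mean of 18 libraries) and Agt (12.6), ahead of Lnpep (3.49), Ace (2.82), Mme (0.544), Agtr2 (0.201) and Agtr1a (0.0928). All 7 genes differed between Gnb5+/+ heart and brain in edgeR's quasi-likelihood test with each mouse as a block. Ace, Agtr1a, Lnpep and Mme were higher in the heart, and Agt, Agtr2 and Atp6ap2 were higher in the brain. Of the 19477 genes tested, 91.6% also differed between these organs, 41% higher and 50.6% lower in the heart, so a call alone sets no member apart. In Gnb5-/- mice, where 86.4% of genes differed, all 7 members were called in the same directions. The median log2 difference of heart minus brain over all genes was -0.23, and the members' median was 1.36, where Agtr2 passed the filter on low counts through the brain alone. The block takes out differences shared by all tissues of a mouse. The p-values here therefore rest on how much the differences between tissues vary from mouse to mouse. In bulk tissue, fewer cells of a type and less RNA per cell cannot be told apart.

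**Figure D1:**
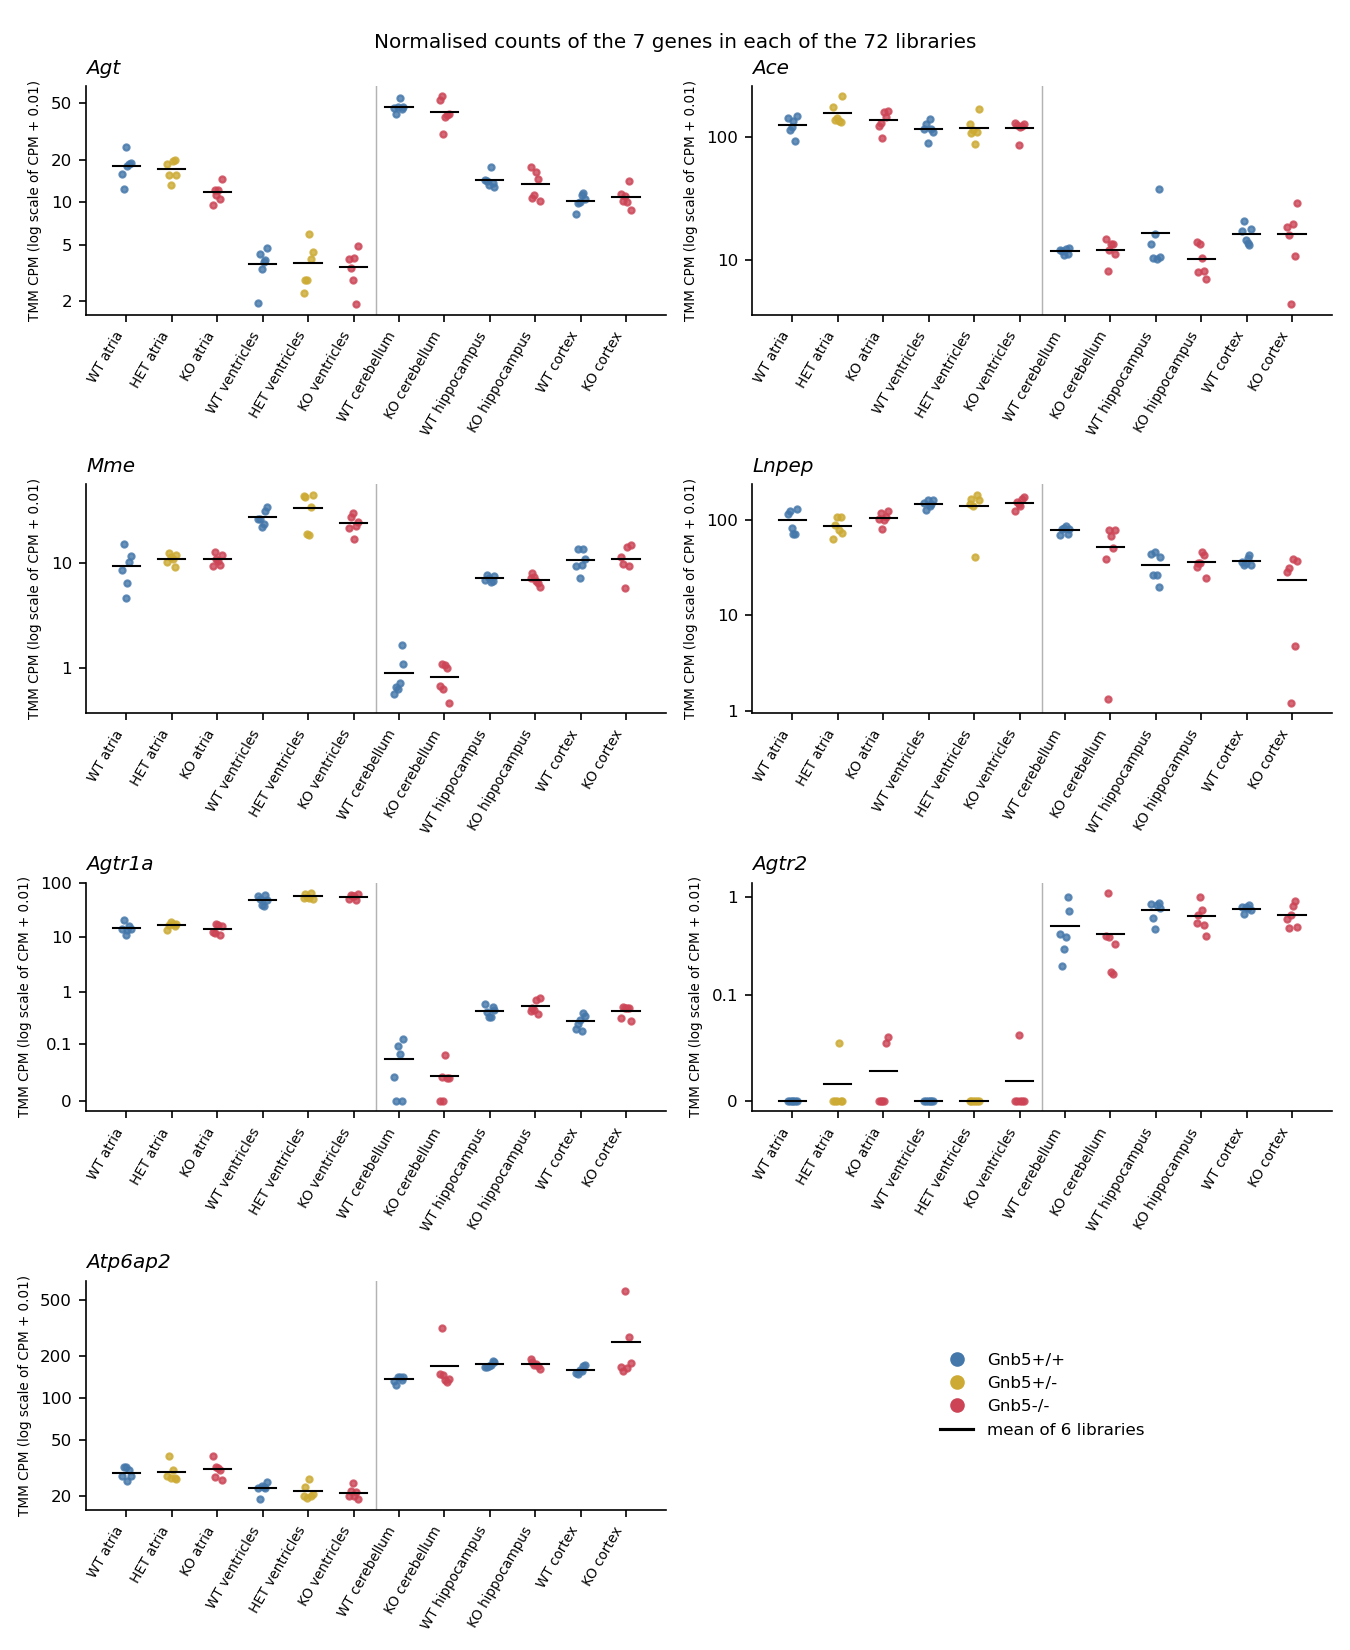
Normalised count (TMM CPM, log scale of CPM + 0.01) of each gene in every library, by tissue and genotype, with 1 point per mouse and a line at the mean of 6 libraries (WT, Gnb5+/+; HET, Gnb5+/-; KO, Gnb5-/-). Ace and Agtr1a stand higher in every heart library, left of the grey line, than in any brain library, Agt and Atp6ap2 are highest in brain regions, and Agtr2 is at 0 in all 12 Gnb5+/+ heart libraries.

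Angiotensinogen was highest in the cerebellum. Among Gnb5+/+ mice, Agt was 47.1 ± 4.28 CPM in the cerebellum (SD, n = 6), with a lowest library of 41.7, a median of 46.6 and a highest of 54.9. It was 18.0 ± 4.00 CPM in the atria (12.3, 18.3 and 24.5), 14.3 ± 1.76 in the hippocampus (12.8, 13.9 and 17.7), 10.3 ± 1.19 in the cerebral cortex (8.27, 10.3 and 11.6) and 3.67 ± 0.961 in the ventricles (1.94, 3.85 and 4.72). The cerebellum and the ventricles did not overlap with any other tissue, whereas the ranges of atria and hippocampus did. Each tissue differed from the next in this order (edgeR, adjusted p from 1.1e-11 to 0.011). The step from atria to hippocampus was the smallest (log2 0.34 ± 0.12 SE), and it missed the threshold in DESeq2. The 5 astrocyte markers summed to 1813 CPM in Gnb5+/+ cerebellum, 1166 in hippocampus and 998 in cortex. The same genes summed to 558 in atria and 704 in ventricles, so the heart sums are not read as a measure of astrocytes. None was at 0 in any of these tissues, and their part in the Agt order was not tested. Among all genes, 87.3%, 87.6% and 88.1% differed between Gnb5+/+ atria and cerebellum, hippocampus and cortex, 87.3%, 87.8% and 88.3% between ventricles and the same regions, 70.8% and 71.8% between cerebellum and hippocampus or cortex, and 37.7% between hippocampus and cortex.

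Within the heart, Agt showed the widest gap between chambers of the 6 members tested there in Gnb5+/+ and Gnb5+/- mice, whereas that of Agtr1a was wider in Gnb5-/- mice, and 5 of the 6 differed in Gnb5+/+ mice (2 higher and 3 lower in the atria, beside 31% and 22.7% of all genes). It was 4.96-fold higher in Gnb5+/+ atria than in ventricles of the same mice (log2 2.31 ± 0.14 SE, adjusted p = 1.3e-13), and the atria were higher in 6 of 6 mice, by ratios from 2.87 to 8.14. In Gnb5+/- mice it was 4.69-fold higher (log2 2.23 ± 0.17 SE, adjusted p = 1.7e-06; 6 of 6 mice). In Gnb5-/- mice the difference was 3.34-fold (log2 1.74 ± 0.19 SE, adjusted p = 6.6e-08; 6 of 6 mice). Between 41.7% (Gnb5-/-) and 54.2% (Gnb5+/-) of all genes tested differed between chambers, with 53.6% in Gnb5+/+ mice.

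Of all genotype comparisons of the 7 genes, that of Agt in Gnb5-/- atria came closest to the threshold. Agt was 11.8 ± 1.71 CPM in Gnb5-/- atria, with a lowest library of 9.60, a median of 11.7 and a highest of 14.6, beside 18.0 ± 4.00 CPM in Gnb5+/+ and 17.05 ± 2.62 CPM in Gnb5+/- atria (13.3, 17.1 and 19.7). All 6 Gnb5-/- atria lay below the Gnb5+/+ mean, but the groups overlapped, because the lowest Gnb5+/+ library (12.3, mouse 16) lay under the highest Gnb5-/- library. The log2 fold change was -0.62 ± 0.14 SE (1.54-fold lower; interval of 2 SE either side, -0.90 to -0.34; two-sided exact permutation test, p = 0.00433). With adjustment over all genes, it did not pass the threshold in edgeR (adjusted p = 0.0759) and passed it in DESeq2 (log2 fold change of -0.62 with an adjusted p of 0.00638), with adjusted p from 0.00638 to 0.207 over 18 alternatives. The study also lists Agt as lower in Gnb5-/- atria, from DESeq2 on these same libraries, so the DESeq2 call here is not an independent result. Leaving out mouse 16, the lowest Gnb5+/+ library, widens the difference by construction (log2 fold change -0.70; edgeR, adjusted p = 0.0258). Leaving out the highest, mouse 17, gave -0.51 (edgeR, adjusted p = 0.171). Of the 12 fits that each left out 1 library, only the 1 without mouse 16 passed the threshold. The atria of mouse 16 also had the highest summed level of the 3 ventricular muscle genes (1320 CPM), which ranged from 73.3 to 1320 in Gnb5+/+, from 42.0 to 683 in Gnb5+/- and from 115 to 441 in Gnb5-/- atria. The 5 adipocyte genes summed to 6.57 to 29.7 CPM in Gnb5+/+ and 6.19 to 354 in Gnb5-/- atria. None of these 8 markers was at 0 in either group, and their part in the result was not tested.

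For Agt in the atria of Gnb5+/- mice, set against the same Gnb5+/+ libraries, the log2 fold change was -0.08 ± 0.14 SE (interval -0.35 to 0.20). In the ventricles Agt was 3.51 ± 1.04 CPM in Gnb5-/- and 3.71 ± 1.35 CPM in Gnb5+/- mice, and both ranges enclosed most of the Gnb5+/+ values (log2 fold change -0.08 ± 0.24 and 0.00 ± 0.24 SE). A test of whether the Gnb5-/- effect differed between atria and ventricles gave a log2 difference of -0.53 ± 0.24 SE (edgeR with the mouse as a block, adjusted p = 1). Tested in the same way, the Gnb5-/- effect differed between tissues for 0 of the members in 5 contrasts: atria and ventricles (0.00491% of all genes called), cerebellum and hippocampus (0.0246%), cerebellum and cortex (0.0196%), hippocampus and cortex (0%), and heart and brain (0.408%). Unadjusted p-values below 0.05 were found there for Agt (1 contrast), Agtr1a (2) and Atp6ap2 (1). Agtr1a held 0 to 7 counts per library in Gnb5+/+ and 0 to 3 in Gnb5-/- cerebellum. Its contrasts that include the cerebellum therefore rest on very few counts. The same limit holds for Agtr2 in contrasts that include the heart, with 0 counts in all Gnb5+/+ and 3 in all Gnb5-/- heart libraries. In the brain, Agt of Gnb5-/- mice was 43.6 ± 9.28 CPM in the cerebellum, 13.4 ± 3.15 in the hippocampus and 10.97 ± 1.78 in the cortex, with log2 fold changes of -0.11 ± 0.13, -0.10 ± 0.13 and 0.12 ± 0.12 SE. Without the libraries that stood apart, the log2 fold change of Agt was -0.20 ± 0.10 SE in the cerebellum, -0.024 ± 0.095 SE in the cortex and -0.17 ± 0.24 SE in Gnb5+/- ventricles, and none of the 3 was called.

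**Figure D2:**
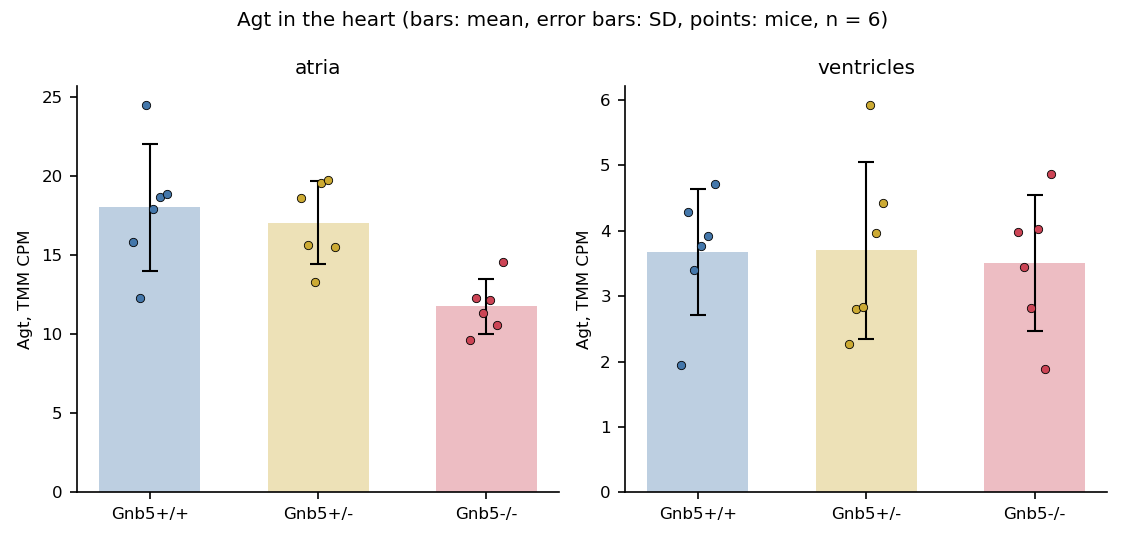
Agt in atria (left) and ventricles (right) of the 3 genotypes, in TMM CPM on linear axes of different range, with bars at the mean, error bars of 1 SD and a point per mouse (n = 6). The 6 Gnb5-/- atria lie between 9.60 and 14.6 and overlap with the Gnb5+/+ atria, which lie between 12.3 and 24.5, and the ventricles of all genotypes lie between 1.89 and 5.92.

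Ace, the endothelial enzyme that makes angiotensin II, was a heart transcript in these libraries. It was 126 ± 20.9 CPM in Gnb5+/+ atria (92.9, 128 and 149 for the lowest, median and highest library) and 116 ± 17.5 CPM in ventricles (88.6, 116 and 140.0). In Gnb5+/+ brain it was 16.5 ± 10.8 CPM in the hippocampus, 16.3 ± 2.85 in the cerebral cortex and 11.9 ± 0.598 in the cerebellum, and no brain library reached the lowest heart library. Heart exceeded brain 8.23-fold (log2 3.04 ± 0.14 SE, adjusted p = 7.2e-18). Neither the chambers (log2 0.16 ± 0.21 SE, interval -0.26 to 0.59) nor the brain regions next to each other in this order differed beyond their spread. The 6 endothelial markers summed to 1044 CPM in Gnb5+/+ atria, 1340 in ventricles and 144 to 189 in the 3 brain regions. In Gnb5+/- mice, atria exceeded ventricles in 6 of 6 animals (log2 0.39 ± 0.08 SE, adjusted p = 0.00229). Atria were higher in 3 of 6 Gnb5+/+ and 5 of 6 Gnb5-/- mice. The Gnb5+/- fit held heart libraries alone, whereas the Gnb5+/+ and Gnb5-/- fits share their spread with the brain libraries. Whether the chamber gap differed between Gnb5+/- and other mice was not tested.

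The highest Ace value of any brain library was 38.0 CPM, in the Gnb5+/+ hippocampus of mouse 7, beside 10.3 to 16.2 in the other 5. That library also had the highest summed level of 6 choroid plexus markers (1210 CPM). Choroid plexus lies within the ventricles of the brain and can come away with the hippocampus. Those 6 markers ranged from 27 to 1210 CPM in Gnb5+/+ and from 27.3 to 227 CPM in Gnb5-/- hippocampi, and none was at 0. With all libraries, Ace in the Gnb5-/- hippocampus had a log2 fold change of -0.71 ± 0.31 SE (edgeR, adjusted p = 0.642; exact permutation test, p = 0.132), and all 6 Gnb5-/- values (7.06, 9.31 and 13.95) lay below the Gnb5+/+ mean. Without mouse 7 the log2 fold change was -0.27 ± 0.19 SE. In the cortex, the library with the highest Ace (28.9 CPM, Gnb5-/- mouse 5) had the highest choroid plexus sum of that tissue (553 CPM). In the Gnb5-/- cerebellum of mouse 12, one of the 4 libraries that stood apart, the sum was 629 CPM. Its Ace level was 8.12 CPM, the lowest of the 12 cerebella. The part of choroid plexus in the Ace levels was not tested. Ace did not pass the threshold in any genotype comparison. In Gnb5+/- atria it was 155 ± 32.4 CPM, with 6 of 6 libraries above the Gnb5+/+ mean (log2 fold change 0.31 ± 0.14 SE, p = 0.0416 and adjusted p = 0.667 in edgeR; exact permutation test, p = 0.0823).

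**Figure D3:**
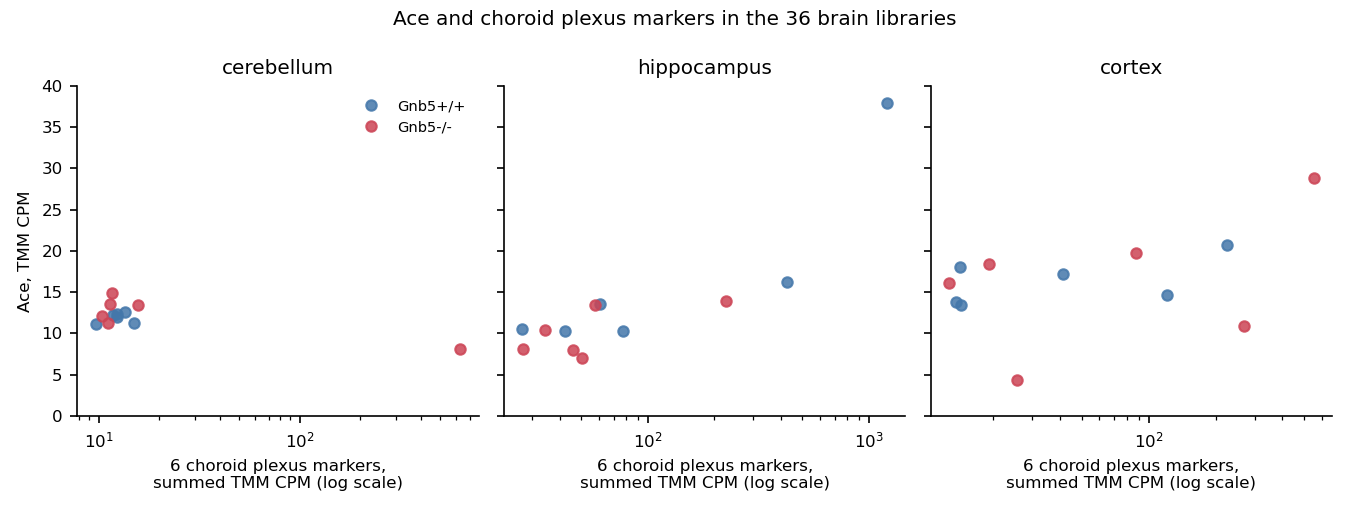
Ace (TMM CPM, linear axis) against the summed level of 6 choroid plexus markers (TMM CPM, log axis) in the 36 brain libraries, 1 panel per region, coloured by genotype. The hippocampus with 38.0 CPM of Ace and the cortex with 28.9 CPM each have the highest marker sum of their region, whereas the cerebellum with the highest sum, one of the 4 libraries that stood apart, has the lowest Ace level of its panel.

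Mme and Lnpep were both highest in the ventricles, and among the brain regions the cerebellum held the least Mme and the most Lnpep. Mme, which also degrades natriuretic peptides and enkephalins, was 27.3 ± 4.71 CPM in Gnb5+/+ ventricles (21.8, 26.2 and 34.2), 10.8 ± 2.56 in the cerebral cortex, 9.48 ± 3.76 in the atria (4.67, 9.44 and 15.2), 7.19 ± 0.426 in the hippocampus and 0.896 ± 0.429 in the cerebellum (0.571, 0.696 and 1.69). Ventricles and cerebellum stood apart from every other tissue without overlap, and atria and cortex were not separated (atria minus cortex, log2 -0.18 ± 0.16 SE). Atria were 2.91-fold lower than ventricles (log2 -1.54 ± 0.16 SE, adjusted p = 4.1e-09), with atria above ventricles in 0 of 6 mice. The step from atria to hippocampus was at the threshold (adjusted p = 0.0495) and was lost with RLE factors, in DESeq2, without the low-count filter and without the mouse block.

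Lnpep, which is known as the insulin-regulated aminopeptidase, was 147 ± 12.7 CPM in Gnb5+/+ ventricles (126, 148 and 160.1), 97.9 ± 26.4 in atria (70.2, 98.0 and 128), 77.4 ± 6.65 in cerebellum (68.3, 79.5 and 85.1), 37.0 ± 3.79 in cortex and 33.9 ± 11.2 in hippocampus. Cortex and hippocampus were not separated in edgeR (adjusted p = 0.471), nor were atria and cerebellum (adjusted p = 0.0908), whose ranges overlapped, and the other steps passed. In Gnb5+/+ mice the cerebellum was thus the brain region with the most Agt and Lnpep. It had the lowest brain mean of the other members: Mme, Agtr1a, Ace, Agtr2 and Atp6ap2. For Ace its step to the cortex was not called, and for Agtr2 its step to the hippocampus was not called.

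The type 1 receptor was the member with the widest range between organs among those counted in both. Agtr1a was 48.8 ± 8.85 CPM in Gnb5+/+ ventricles (38.5, 49.5 and 59.7) and 15.2 ± 3.17 in atria (11.2, 14.3 and 20.6). In the hippocampus it was 0.444 ± 0.101 CPM (0.343, 0.431 and 0.598), in the cortex 0.281 ± 0.0881 (0.182, 0.274 and 0.403) and in the cerebellum 0.0499 ± 0.0526, where libraries held 0 to 7 counts. The step from hippocampus to cortex was at the threshold (adjusted p = 0.0491) and was lost with RLE factors, in DESeq2 and without the mouse block. The heart chambers did not overlap with each other or with any brain region. Heart exceeded brain 141-fold (log2 7.14 ± 0.12 SE, adjusted p = 1.6e-28), and atria were 3.14-fold lower than ventricles (log2 -1.65 ± 0.13 SE, adjusted p = 2.1e-11; lower in 6 of 6 mice). Agt and Agtr1a therefore had opposite gradients across the heart: the precursor was higher in the atria, and its receptor and Mme were higher in the ventricles. The same 3 directions passed the test in Gnb5-/- mice (Agtr1a log2 -1.98 ± 0.16 SE, Mme log2 -1.16 ± 0.19 SE) and in Gnb5+/- mice (-1.76 ± 0.10 and -1.54 ± 0.19 SE).

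In the ventricles, Agtr1a was 56.2 ± 5.43 CPM in Gnb5-/- (48.3, 57.1 and 63.5) and 57.0 ± 6.05 CPM in Gnb5+/- mice (50.8, 55.0 and 66.0). Both groups overlapped with Gnb5+/+ ventricles, with log2 fold changes of 0.19 ± 0.11 and 0.22 ± 0.11 SE (two-sided exact permutation test, p = 0.139 and 0.104), and both were set against the same 6 Gnb5+/+ libraries. In the cortex, Agtr1a was 0.438 ± 0.107 CPM in Gnb5-/- mice (0.282, 0.494 and 0.530), and 6 of 6 lay above the Gnb5+/+ mean of 0.281. The log2 fold change was 0.66 ± 0.26 SE (edgeR, p = 0.0244, adjusted p = 0.474; exact permutation test, p = 0.0238), from 10 to 23 counts per library in Gnb5+/+ and 16 to 28 in Gnb5-/- mice. Without the 2 cortices that stood apart it was 0.53 ± 0.28 SE (interval -0.04 to 1.09). Agtr1a was too low to be tested between genotypes in the cerebellum.

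Agtr2 was a brain transcript at low level. Among Gnb5+/+ mice it was 0.762 ± 0.0555 CPM in the cortex (0.667, 0.778 and 0.823), 0.736 ± 0.160 in the hippocampus (0.472, 0.801 and 0.874) and 0.506 ± 0.294 in the cerebellum (0.199, 0.412 and 0.984). The regions overlapped, and no neighbouring pair passed the threshold (cerebellum minus hippocampus, log2 -0.56 ± 0.25 SE, interval -1.06 to -0.07, adjusted p = 0.0523), although cerebellum and cortex did (log2 -0.62 ± 0.25 SE, adjusted p = 0.0323), a call that was lost without the mouse block. No count of Agtr2 was found in the 12 Gnb5+/+ heart libraries. Taking 3 counts over the 12 libraries as the limit that 0 allows (0.00966 CPM), the brain level was at least 68.4-fold higher. In the 12 Gnb5-/- hearts 3 counts were found, in 3 libraries, and the brain was 68.1-fold higher with a 95% interval of 23.2 to 331 that covers counting error only. The 12 Gnb5+/- hearts held 1 count. At these counts a difference between genotypes in the heart was not detectable.

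Atp6ap2 showed the reverse of Ace. It was 173 ± 7.36 CPM in Gnb5+/+ hippocampus (165, 171 and 183), 159 ± 9.41 in cortex (149, 157 and 171), 135 ± 6.94 in cerebellum (123, 137 and 141), 29.3 ± 2.84 in atria (25.5, 29.2 and 32.4) and 22.8 ± 2.07 in ventricles (19.0, 23.0 and 25.3). Brain and heart did not overlap, and heart was 6.04-fold lower (log2 -2.59 ± 0.04 SE, adjusted p = 6.5e-29). Hippocampus and cortex were not separated in edgeR (adjusted p = 0.0585) and every further step was. Atria exceeded ventricles in 6 of 6 Gnb5+/+ mice (log2 0.40 ± 0.06 SE). In Gnb5-/- mice, the chambers were not called different for Atp6ap2 (log2 0.55 ± 0.24 SE, adjusted p = 0.0738) or Lnpep (-0.55 ± 0.58 SE, adjusted p = 0.488) in a fit that shares its spread with the brain libraries that stood apart. Without those libraries both were called, at 0.53 ± 0.07 SE and -0.54 ± 0.14 SE.

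Comparing genotypes, edgeR called 0 of the members in each of the 7 comparisons, with 6 or 7 members tested in each. Their median log2 fold change lay between -0.11 (Gnb5-/- cerebellum) and 0.08 (Gnb5+/- and Gnb5-/- atria), beside medians of all genes between -0.01 and 0.01. The share of all genes called was 0.253% in Gnb5-/- atria, 0.188% in Gnb5-/- ventricles, 0.0817% in Gnb5-/- cerebellum, 0.165% in Gnb5-/- hippocampus and 0.0557% in Gnb5-/- cortex, and 0.0124% and 0.0202% in Gnb5+/- atria and ventricles. DESeq2 called 1, Agt in Gnb5-/- atria, where it called 0.618% of all genes. Unadjusted p-values below 0.05 were found in edgeR for Agt and for Ace in the atria of Gnb5-/- and Gnb5+/- mice respectively, for Ace in the Gnb5-/- hippocampus, and for Agtr1a and Atp6ap2 in the Gnb5-/- cortex. Without the libraries that stood apart, or that with the highest choroid plexus sum, edgeR again called 0 members, beside 0.0133% of all genes in Gnb5+/- ventricles and 0.359%, 0.146% and 0.142% in Gnb5-/- cerebellum, hippocampus and cortex. In no comparison were 2 genotype groups of a member free of overlap, as was the case for 0.612%, 0.538%, 1.1%, 0.648% and 0.601% of all genes in the atria, ventricles, cerebellum, hippocampus and cortex of Gnb5-/- mice and for 0.198% and 0.168% in the atria and ventricles of Gnb5+/- mice. These values do not show that levels were equal. In the hearts with all libraries, the intervals of 2 SE either side reached at most a log2 fold change of 0.72 in size for the Gnb5+/- and 0.90 for the Gnb5-/- mice. Without the ventricles of mouse 4 they reached 0.80 for the Gnb5+/- mice (Mme). In the brain some intervals reached further, such as those of Lnpep in cerebellum and cortex, whose values are given below.

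**Figure D4:**
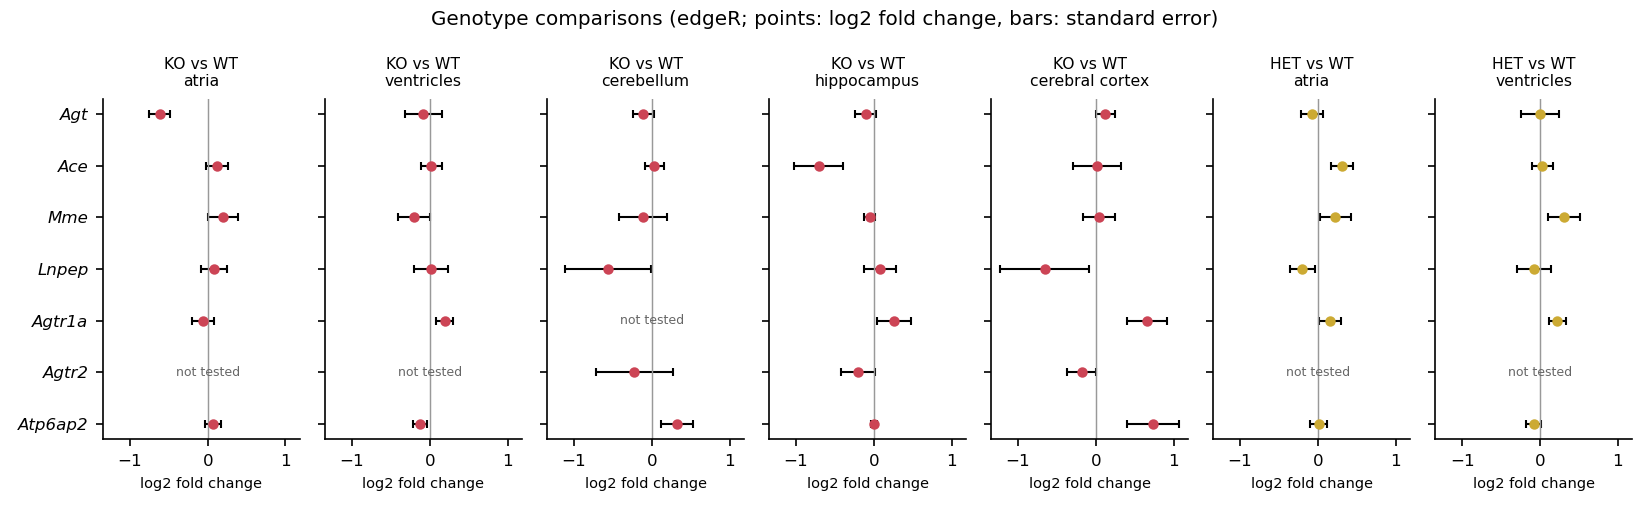
Log2 fold changes of the 7 genes in the 7 genotype comparisons (edgeR; KO, Gnb5-/-; HET, Gnb5+/-; WT, Gnb5+/+; points with bars of 1 standard error; genes filtered out for low counts are marked as not tested). Agt in Gnb5-/- atria (-0.62) lies farthest from 0 in units of its error, and the long bars of Lnpep and Atp6ap2 in cerebellum and cortex come from fits that include the libraries that stood apart.

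The fold changes of Lnpep and Atp6ap2 in the cerebellum and cortex moved with the libraries that stood apart. In the Gnb5-/- cerebellum of mouse 12, Lnpep was 1.34 CPM and Atp6ap2 313 CPM, beside 38.6 to 78.2 and 130 to 149 CPM in the other 5 mice. In the Gnb5-/- cortices of mice 14 and 3, Lnpep was 1.22 and 4.74 CPM and Atp6ap2 575 and 273 CPM, beside 28.4 to 38.5 and 156 to 176 CPM in the other 4. The 2 genes moved in opposite directions in each of these 3 libraries. With all cortices, the log2 fold change was -0.66 ± 0.57 SE for Lnpep and 0.74 ± 0.33 SE for Atp6ap2 (edgeR, adjusted p = 0.534 and 0.474). Without the 2 libraries it was -0.14 and 0.05. In the cerebellum, the values of -0.57 ± 0.55 and 0.32 ± 0.20 SE became -0.31 ± 0.15 SE and 0.04 without mouse 12. With all cerebella, the exact permutation test gave p = 0.0433 for Lnpep. Among the other Gnb5-/- cerebella, mice 10 and 3 had the lowest Lnpep (38.6 and 50.4 CPM). They also had the lowest values of long minus short genes (-0.22 and -0.13). The part of transcript length in the remaining fold change was not tested. Of the other members, Ace went from 0.02 to 0.35 ± 0.16 SE and Mme from 0.04 to 0.23 ± 0.17 SE in the cortex, and from 0.03 to 0.13 ± 0.07 SE and from -0.11 to -0.22 in the cerebellum. Agtr2 went from -0.23 to -0.76 ± 0.40 SE in the cerebellum and from -0.18 to -0.36 ± 0.18 SE in the cortex. None of these was called. The Gnb5+/- ventricles of mouse 4 had 41.0 CPM of Lnpep beside 139 to 182 in the other 5, and the log2 fold change of -0.08 became 0.11 without that mouse, while that of Mme went from 0.31 to 0.43 ± 0.18 SE and that of Ace from 0.03 to 0.11 ± 0.12 SE.

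**Figure D5:**
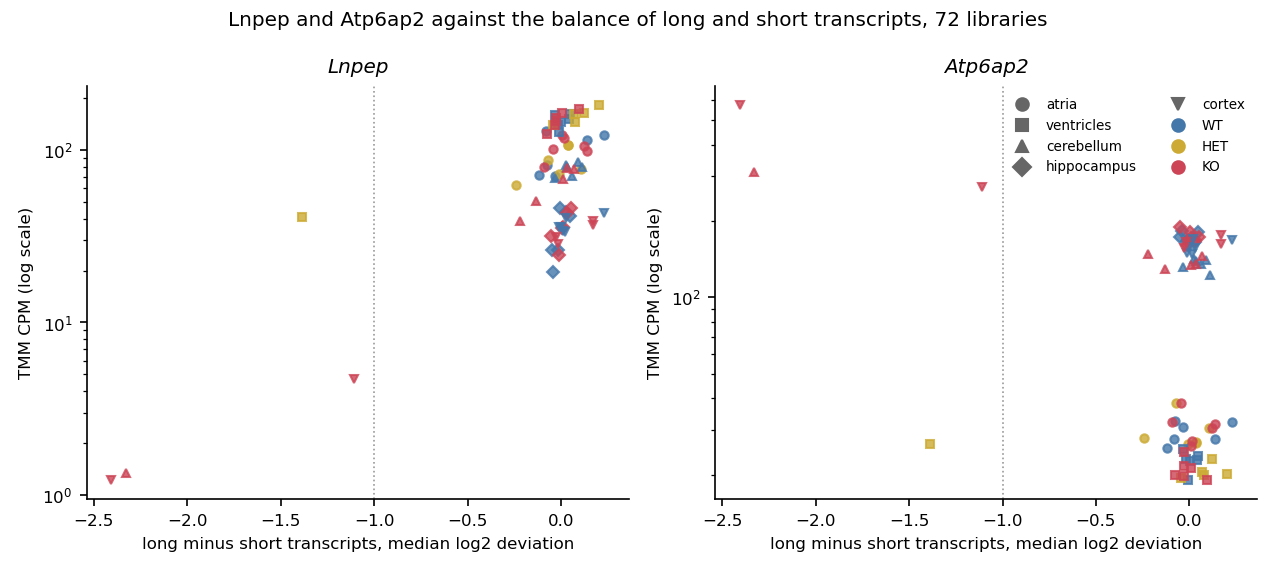
Lnpep (left) and Atp6ap2 (right) in TMM CPM on log axes, against the median log2 deviation of long minus short transcripts in each of the 72 libraries, with the tissue as the symbol and the genotype as the colour (WT, Gnb5+/+; HET, Gnb5+/-; KO, Gnb5-/-). The 4 libraries left of the dotted line at -1 have Lnpep levels of 1.22 to 41.0, under those of their tissue. Their Atp6ap2 levels lie over those of their tissue, at 273 to 575 in the 3 brain libraries and 26.4 in the Gnb5+/- ventricles.

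The wider pathway was read from a list of 27 other genes: enzymes, receptors and the kinin and aldosterone arms. In Gnb5+/+ mice, 16 of the 27 were high enough to be tested and 11 were not, and heart and brain differed in the 16, 11 higher in the heart and 5 lower, beside 91.6% of all genes (41% higher and 50.6% lower). Among the 11 were the mast cell proteases Cma1, Mcpt4 and Cpa3, named after their values were seen, which passed the filter through the heart alone (0.958 to 1.28 CPM per kb there, 0.0035 to 0.0118 in brain). The 5 lower ones, named after their values were seen, were Mas1, the angiotensin-(1-7) receptor (log2 -1.46 ± 0.15 SE), Thop1, Nln, the mineralocorticoid receptor Nr3c2 and the kinin receptor Bdkrb2. The highest levels per kb in Gnb5+/+ heart were those of the lysosomal carboxypeptidase Ctsa (37.0 CPM per kb), Mtus1 (32.3), which binds the type 2 receptor, and Agtrap (11.8), which binds the type 1 receptor. In Gnb5+/+ brain they were Ctsa (14.4), Nr3c2 (11.9) and Mtus1 (8.68). Renin itself (Ren1) was too low to be tested, at 0.0397 CPM per kb in heart and 0.0693 in brain. Between atria and ventricles, 5 of 16 were higher in the atria (Enpep, Anpep, Prcp, Mcpt4 and Nr3c2) and 4 lower (among them Prep, Nln and Mtus1), again named after their values were seen, beside 31% of all genes higher and 22.7% lower.

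Between genotypes, edgeR called 0 of the 27 in any tissue, out of 16 tested in each heart fit, 12 in cerebellum and 13 each in hippocampus and cortex, and 1 or 2 per comparison had an unadjusted p below 0.05. The list's median log2 fold change lay between -0.08 (Gnb5-/- cortex) and 0.02 (Gnb5-/- hippocampus). By DESeq2, Mas1, named after its values were seen, was called in the atria of Gnb5-/- mice (log2 fold change of -0.69 with an adjusted p of 0.0495), which edgeR did not call (log2 fold change of -0.68 ± 0.17 SE, adjusted p = 0.168). Mas1 was 0.981 ± 0.187 CPM in Gnb5-/- atria beside 1.57 ± 0.302 in Gnb5+/+ and 1.57 ± 0.198 in Gnb5+/- atria.

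For each member, the protein-coding genes with the most similar pattern were sought over the 72 libraries (Pearson r of log2 CPM among 16138 genes, with no test, since the points share mice, depth and a heart-to-brain contrast that dominates most values). For Agt they were Pde9a (0.948), Etv1 (0.930) and Zfp385b (0.918). Those of Ace were Arhgef5 (0.983), Crybg3 and Smtn (both 0.978), and those of Mme were Rxrg (0.956), Ccny (0.944) and Bend5 (0.939). Lnpep was closest to Pggt1b (0.964) and, among the next, Hipk2 (0.959), and Agtr1a to Grb14 (0.991), Acss1 (0.989) and Cpped1 (0.987). Agtr2 was closest to Opalin (0.979), Slc17a6 and Olig2 (both 0.978), and Atp6ap2 to Calm2 (0.993), Ubqln2 (0.992) and Vamp4 (0.991).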

How the data were processed

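RNA-seq libraries had been prepared with a stranded total RNA kit from 350 ng of RNA per tissue and sequenced as single reads. Per the labels and the study's methods, the authors trimmed reads with Cutadapt 1.8, aligned them to GRCm38 (Ensembl 92) with STAR 2.5.3a and counted them per gene with htseq-count 0.9.1. The strand setting is not given in the sources used here. The deposited values are raw counts per gene identifier, 1 table per library. Entries that name no gene were left out of library sizes and tests. Reads on no gene came to 2.85% to 17.0%, ambiguous reads to 0.830% to 1.50%, and reads without a unique place to 15.5% to 49.5% of all reads. Of 53715 identifiers, 53620 matched the GENCODE M21 annotation, which gave symbols, coordinates and exon lengths.

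Within a tissue, genotypes were tested against each other in R 4.3.3 by edgeR 4.0.16 (quasi-likelihood test, TMM factors, filterByExpr with a minimum count of 10, Benjamini-Hochberg adjustment over all genes tested, threshold 0.05), with the 18 libraries of a heart tissue or the 12 of a brain tissue in 1 fit. Standard errors were the size of the log2 fold change over the square root of F, and printed intervals span 2 standard errors either side. Tissues were compared within a genotype, and the Gnb5-/- effect between tissues over 60 libraries, with each mouse as a block, since same-numbered libraries of one genotype come from the same mouse. Single genes were also tested by exact permutation of log2 CPM (prior count 2). These fits were also run on simulated counts with larger changes than those of the members between genotypes, and with no differences between mice. That run does not cover smaller changes or the use of the mouse block. Alternatives were DESeq2 1.42.0, RLE factors, no filter, a filter of 10 counts in every library, the replicate block, 2 genotypes only, and leaving out each library in turn for Agt in atria. Leaving out the libraries that stood apart was chosen after seeing the data. No pair of libraries was identical.

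The members, marker lists and pathway list were chosen with earlier results of these data known. By rule, the text names the members, pathway genes called between genotypes in edgeR, the 3 pathway genes of highest level per kb in Gnb5+/+ heart and brain, and the 3 protein-coding genes most like each member. A few genes that these rules or counts include are not reported here. Gnb5 served as the check of labels. Promoter sequences are from RefSeq (GRCm38.p6), searched for TATAA on both strands. Python 3.11.15, pandas 2.3.3, scipy 1.17.1 and matplotlib 3.10.9 were used for summaries and plots.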

Additional observations from a re-analysis of the deposited data

Results flagged for a closer look

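In 8 of the 77 gene and group combinations examined, a single library lay far from the other 5 of its group (gap to the nearest library over 0.625 of the group's range, Dixon's 95% limit for 6 samples). Chance gives about 1 in 20 such cases, and their causes were not tested.

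A group of 4 such values came from libraries with few reads on long transcripts. Atp6ap2 was 575 CPM in the Gnb5-/- cortex of mouse 14 (others 156 to 273) and 313 CPM in the Gnb5-/- cerebellum of mouse 12 (others 130 to 149). In the latter library Agtr2 was 1.09 CPM (others 0.164 to 0.406). Lnpep was 41.0 CPM in the Gnb5+/- ventricles of mouse 4 (others 139 to 182). These 3 libraries are among the 4 in which long transcripts were low.

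Ace was 38.0 CPM in the Gnb5+/+ hippocampus of mouse 7 (others 10.3 to 16.2), the library with the highest choroid plexus sum. The remaining 3 were in libraries that did not stand apart. Agt was 17.7 CPM in the Gnb5+/+ hippocampus of mouse 18 (others 12.8 to 14.5). Ace was 86.5 CPM in the Gnb5-/- ventricles of mouse 14 (others 121 to 131). Atp6ap2 was 38.5 CPM in the Gnb5+/- atria of mouse 13 (others 26.5 to 30.7).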

How the results depend on the processing

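The number of members called between genotypes was 0 under every alternative run except 1, DESeq2 in Gnb5-/- atria, which called 1 member (Agt). For Agt there, leaving out each library in turn gave log2 fold changes from -0.70 to -0.51 and adjusted p from 0.0258 to 0.206 in edgeR, with 1 of 12 below the threshold (without the Gnb5+/+ atria of mouse 16). With the replicate number as a block, the call count stayed 0 in each genotype comparison (Agt log2 fold change -0.61, adjusted p = 0.207). Same numbers join different animals across genotypes, and the deviations of same-numbered libraries correlated between -0.246 and 0.148, so these numbers do not pair the samples. Between tissues, 66 calls over members and contrasts in Gnb5+/+ mice became 63 to 65 under the alternatives, 55 in Gnb5-/- mice became 55 to 67 (67 without the libraries that stood apart), and 6 in Gnb5+/- mice stayed 6. In the main fits, 37.7% to 91.6% of all genes were called in the Gnb5+/+ contrasts. The share was 41.7% between chambers and 86.4% between heart and brain in Gnb5-/- mice, and 54.2% between chambers in Gnb5+/- mice. Shares for the other Gnb5-/- contrasts are not reported here. These counts alone therefore set no member apart. Among single values for a member, 1148 kept direction and side of the threshold, 10 (of 5 results) lost a call, 18 (of 15 results) gained one, and 26 (of 14 results) changed sign, none of them called with or without the change; the causes were not tested. Without the libraries that stood apart, the log2 fold change became -0.17 (edgeR and DESeq2) for Agt and 0.11 (both) for Lnpep in Gnb5+/- ventricles, and -0.024 (both) for Agt in Gnb5-/- cortex. In Gnb5-/- mice, hippocampus minus cortex became 0.058 for Atp6ap2 (-0.46 with all libraries) and 0.033 for Agtr2, and atria minus cortex -0.22 for Mme. The Gnb5-/- effect became -0.21 for Ace and -0.17 for Lnpep in cerebellum minus cortex, and 0.11 for Agtr2 in hippocampus minus cortex. Without mouse 7, Lnpep in Gnb5-/- hippocampus became -0.041 (DESeq2 -0.039). Agt in Gnb5+/- ventricles was also -0.0098 without the filter, -0.013 with the replicate block and -0.00036 in DESeq2, and Ace in Gnb5-/- cortex was -0.14 with the replicate block. Atp6ap2 in Gnb5-/- hippocampus was -0.0020 with 10 counts in every library. Ace in Gnb5+/+ hippocampus minus cortex was 0.035 without the mouse block and 0.0081 without the filter, and Mme in Gnb5-/- atria minus cortex was -0.053 with RLE factors, -0.054 in DESeq2 and -0.011 without the filter. The Gnb5-/- effect was 0.0030 for Agt in cerebellum minus hippocampus with brain libraries alone, and 0.0058 for Agtr2 in hippocampus minus cortex without the mouse block. The median log2 difference of heart minus brain over all genes was -0.23 with TMM, -0.27 with RLE factors and 0.23 in DESeq2, and the 7 members kept their directions under each. Low counts limit Agtr1a in the cerebellum and Agtr2 in the heart.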
